A study of Mus musculus with 6 samples.

Results

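B cell lineage genes outside the immunoglobulin loci were followed in RNA from plastic-adherent macrophages of the mouse peritoneal cavity (Balb/c) after phosphate-buffered saline (PBS) or BSN-37, an agent for which the labels give a code name alone. The set held 31 genes, chosen by name for the B cell receptor complex, B cell transcription factors and B cell surface markers, and all 31 were among the 46141 genes of the deposited gene table. The mice were male and 6 to 8 weeks old, and every group, controls included, had been primed with 2 mL of 3% thioglycollate broth 3 days before sampling. An injection of 0.2 mL into the peritoneum followed, either PBS or BSN-37 (48 µg/mL), and the cavity was washed out after 12 h. The cells adhered to plastic for 4 h before lysis, a step that enriches macrophages over lymphocytes. Each group had 18 mice, pooled by 6 into 3 libraries, so 1 library stands for a pool of animals and no single mouse can be seen.

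B cells read antigen through a membrane immunoglobulin that signals through the CD79A and CD79B chains, and kinases and adaptors pass the signal on. The transcription factors EBF1 and PAX5 set up and keep the lineage, and a group of inhibitory receptors holds the signal back. The peritoneal cavity is a home of B-1 cells, a self-renewing B cell type that makes natural antibody, beside conventional B-2 cells. The labelled cell type is the macrophage. Of the 31 genes, 16 are known mainly from B cells and are called B restricted here, and 15 are also known from macrophages, dendritic cells, T cells or granulocytes and are called shared. In bulk RNA, more B cells among the adherent cells and more RNA per B cell cannot be told apart.

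Library totals ran from 55882693 to 65456020 counts. On the first principal component (29.1% of the variance) PBS library 1 stood apart, at -77 against -1.21 to 27.5 in the other libraries. The macrophage list of 10 genes summed to 15345 to 17897 FPKM in the PBS pools and 15384 to 18029 in the BSN-37 pools, far above the sum of the B restricted genes. Most of that sum, and so its overlap between the groups, was Lyz2, the lysozyme gene of myeloid cells, at 13200 to 15800 FPKM over the 6 pools. Csf1r and Adgre1, defining macrophage genes, had 411 to 515 and 264 to 425. FPKM is the authors' fragment density, scaled for gene length and library size.

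Promoter sequence is shown for 4 genes. These are Cd79a, Btla and Bank1, whose pools did not overlap between the groups (in Bank1 narrowly), and Cd37, the most abundant gene of the set, whose pools did. RefSeq promoter windows (GRCm38.p6; 250 bases before to 50 after the start, printed 5′ to 3′ on the gene's strand) were matched for 25 of the 31 genes, 4 of which have more than 1 window, giving 30. Capitals mark a match, on either strand, to the PU box GAGGAA, read by ETS factors such as SPIB, or to CCCNNGGG, the core letters read by EBF1. Each of the 4 windows shown holds a match, while others, such as that of Pax5, hold none. The Cd79a window lies at chr7:24897247-24897546 (plus strand), that of Btla at chr16:45224087-45224386 (plus), that of Bank1 at chr3:136326017-136326316 (minus) and that of Cd37 at chr7:45238790-45239089 (minus).
Cd79a: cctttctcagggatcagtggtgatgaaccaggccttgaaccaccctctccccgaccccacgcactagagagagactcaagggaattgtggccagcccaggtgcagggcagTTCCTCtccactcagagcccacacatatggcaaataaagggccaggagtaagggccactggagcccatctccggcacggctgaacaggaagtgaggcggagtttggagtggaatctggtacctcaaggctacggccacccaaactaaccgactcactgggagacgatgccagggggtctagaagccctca
Btla: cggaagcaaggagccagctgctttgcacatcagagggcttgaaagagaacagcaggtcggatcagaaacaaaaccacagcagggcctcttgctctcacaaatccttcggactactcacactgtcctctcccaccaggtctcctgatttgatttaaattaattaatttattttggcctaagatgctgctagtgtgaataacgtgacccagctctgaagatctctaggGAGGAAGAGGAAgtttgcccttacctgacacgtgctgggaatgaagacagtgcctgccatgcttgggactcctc
Bank1: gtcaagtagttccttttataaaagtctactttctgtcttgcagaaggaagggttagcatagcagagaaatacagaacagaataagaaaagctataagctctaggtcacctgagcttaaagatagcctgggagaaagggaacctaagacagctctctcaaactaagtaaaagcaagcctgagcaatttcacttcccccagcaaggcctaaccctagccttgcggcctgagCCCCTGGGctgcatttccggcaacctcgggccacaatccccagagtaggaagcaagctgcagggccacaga
Cd37: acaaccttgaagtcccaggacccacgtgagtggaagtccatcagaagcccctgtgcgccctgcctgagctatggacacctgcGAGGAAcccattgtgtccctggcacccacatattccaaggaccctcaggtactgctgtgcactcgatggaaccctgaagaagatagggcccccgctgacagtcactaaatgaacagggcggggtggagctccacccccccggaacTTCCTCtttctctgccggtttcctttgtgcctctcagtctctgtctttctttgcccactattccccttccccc

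The PU box letters were in 11 of the 30 windows (36.7%) and in 28.3% of all 32851 windows. The CCCNNGGG letters were in 3 of the 30 (10%, Bank1, Cd22 and Spib) and in 13.7% of all windows. The octamer ATGCAAAT, read by OCT2 and its coactivator OBF1, was in 2 of the 30 (6.67%, Blnk and Vpreb3) and in 1.74% of all. In Btla the pair of PU box matches lie next to each other. The Cd37 window also holds PU box letters. No motif overlapped another kind of motif in the printed windows.

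The comparison asked how the B cell genes of the adherent fraction differed after BSN-37. Most B restricted genes stood higher in the BSN-37 pools, with Cd79a and Ms4a1 in front. Several shared genes, such as Cd37, Bhlhe41 and Tnfrsf13b, were close to level between the groups. Exceptions went both ways. The shared genes Btla and Fcrl5 had larger differences than most B restricted genes, and Fcrl1, a B restricted gene, was level. The classes were chosen with earlier results of these data known, so this contrast is a description. None of the differences passed the main test (edgeR) across the whole table, while DESeq2 called Cd79a and Ms4a1. The B restricted genes summed to 14.5, 22.1 and 11.6 FPKM in the PBS pools and to 34.5, 39.1 and 18.1 in the BSN-37 pools (values of a group are given in the order of libraries 1, 2 and 3), so BSN-37 library 3 lay below PBS library 2. The shared genes summed to 201, 184 and 182 FPKM in the PBS pools, against 199, 198 and 196 in the BSN-37 pools, of which Cd37 alone gave 109 to 139.

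Tested on counts with edgeR's quasi-likelihood test, 0 of 29 members passed a Benjamini-Hochberg adjusted p of 0.05 (log2 differences given here are BSN-37 minus PBS). Over all 17025 genes tested 0 passed as well (0%). DESeq2 called 2 members, Cd79a and Ms4a1, and 126 genes in all (0.74%). At an unadjusted p under 0.05 in edgeR, 9 members stood higher and 0 lower, against 4.17% of all genes higher and 3.72% lower. The 9 were Cd79a, Btla, Ms4a1, Cxcr5, Cd24a, Tnfrsf13c, Ebf1, Pou2af1 and Pax5. The study's own threshold, a mean ratio over 2 at an unadjusted p under 0.05, was applied here to mean FPKM and the edgeR p. By it 8 members qualified (all of the 9 but Cd24a), against 1.53% of all genes higher and 0.752% lower. In the authors' deposited fold changes, of these 8 only Cd79a passed a ratio of 2 (log2 1.001). Ms4a1, Cxcr5, Btla, Ebf1 and Pou2af1 had log2 values of 0.533 to 0.755 there, and Pax5 and Tnfrsf13c had none. The DESeq2 fit run here gave larger values, 1.60 for Cd79a and 1.04 to 1.56 for those 5 genes. The deposited fold changes are thus not the same measure as these or as the ratio of mean FPKM. The pools did not overlap in FPKM for 8 of the 29 tested members, all higher (7.38% of all genes higher, 5.83% lower): Cd79a, Bank1, Blnk, Ms4a1, Tnfrsf13c, Cd22, Btla and Bcl11a.

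The count of 9 rested on the pools kept. It was 4 without PBS library 1, 5 without PBS library 3 and 3 when either BSN-37 library 1 or library 2 was left out. Leaving out PBS library 2 gave 15 and leaving out BSN-37 library 3 gave 14. The median log2 difference was 0.76 over the 29 tested members, 1.00 over the 14 B restricted and 0.38 over the 15 shared ones, beside 0.00 over all genes tested. A positive difference was found for 25 of the 29 (49.4% of all genes). Each of the 29 had at least 30 reads over the PBS pools alone. Cr2 (48 reads in all), whose pools also did not overlap in FPKM, and Vpreb3 (2 reads) were not tested. The authors' deposited table gives a DESeq2 p-value for 24 of the 31 genes, under 0.05 for 10 and each of these higher, against 9.48% of the 12983 genes with a p there.

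**Figure D1:**
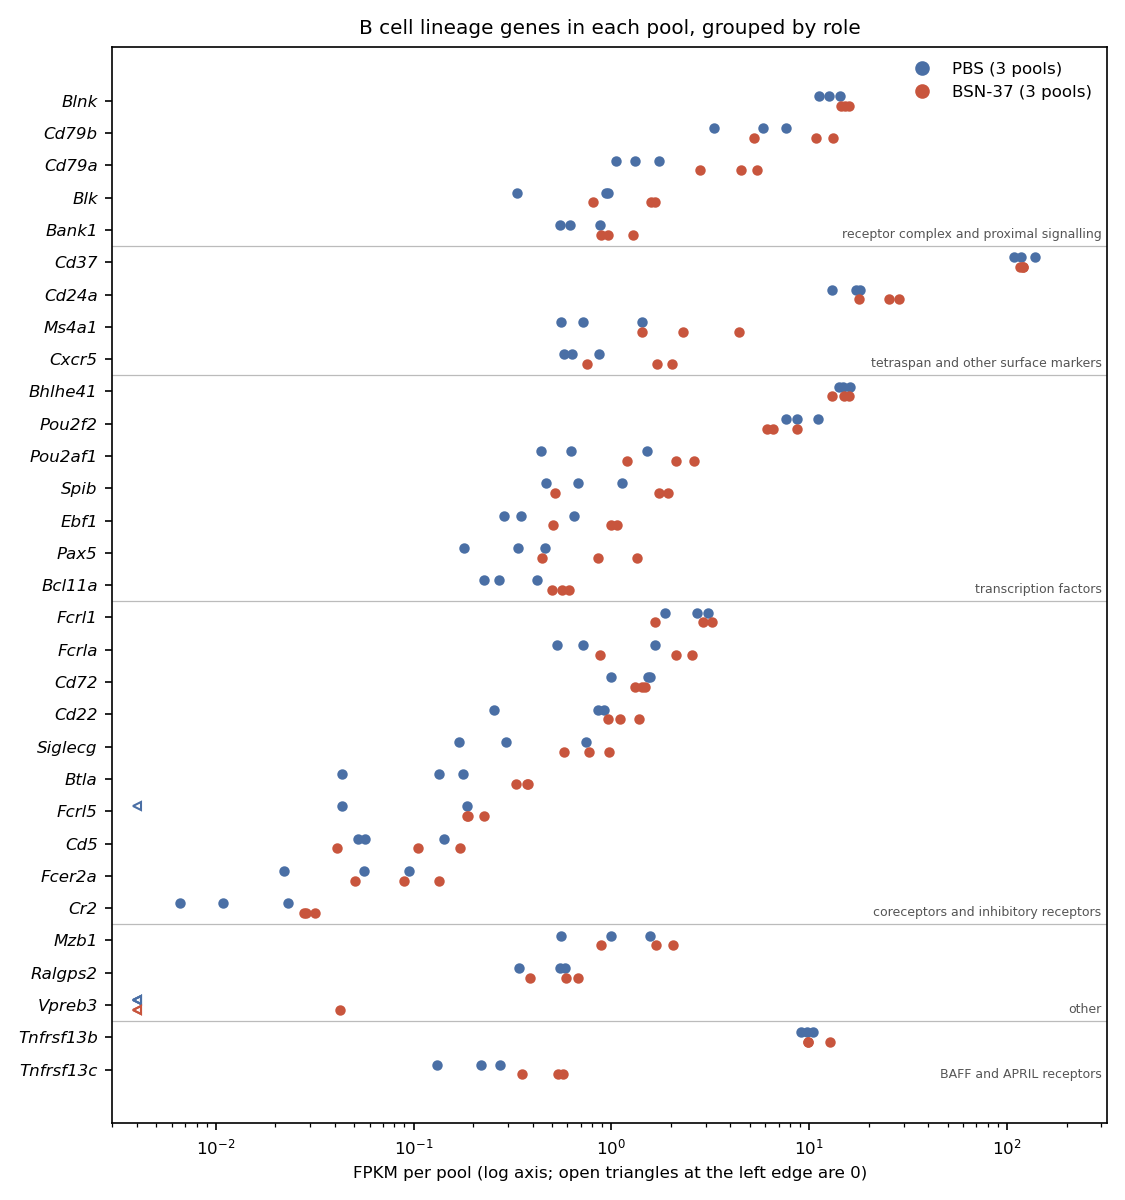
FPKM of each of the 31 genes (log axis) in the 3 PBS pools (blue) and 3 BSN-37 pools (red), grouped by role; 1 point is 1 pool. Cd79a, Tnfrsf13c and Btla have all 3 red points to the right of the blue ones, and Cd37, Bhlhe41 and Fcrl1 overlap.

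Receptor complex and proximal signalling genes came first in the set. Cd79a, the signalling alpha chain of the receptor (chromosome 7, 24897381 to 24902197, plus strand, GRCm38), had 1.05, 1.74 and 1.32 FPKM in the PBS pools, against 5.42, 4.52 and 2.82 in the BSN-37 pools. Every BSN-37 pool lay above every PBS pool. Its counts were 110, 191 and 153 against 530, 465 and 323, a log2 difference of 1.59 (SE 0.30, edgeR adjusted p = 0.388). DESeq2 gave an adjusted p of 0.000295, and the authors' deposited table gives a p of 7.20e-07. Cd79b, the beta chain that pairs with it (chromosome 11, 106311341 to 106314762, minus strand), had 5.82, 7.67 and 3.31 FPKM in the PBS pools, against 10.8, 13.2 and 5.27 in the BSN-37 pools. The groups overlapped there, because BSN-37 library 3 lay under PBS libraries 1 and 2 (log2 difference 0.76, SE 0.36, adjusted p = 0.651). The ratio of the chains, Cd79b over Cd79a in FPKM, was 5.53, 4.42 and 2.50 in the PBS pools and 1.99, 2.91 and 1.87 in the BSN-37 pools, which overlapped.

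Blk, a Src-family kinase of B cells, had 0.938, 0.963 and 0.334 FPKM in the PBS pools, against 1.66, 1.58 and 0.808 with BSN-37 (log2 difference 0.82, SE 0.42, adjusted p = 0.659). Its pools overlapped through BSN-37 library 3. Bank1, a scaffold that links receptor kinases to calcium release, had 0.618, 0.876 and 0.549 in PBS and 0.961, 1.29 and 0.882 in BSN-37. The groups did not overlap, but the nearest pools, PBS library 2 and BSN-37 library 3, were almost level (log2 difference 0.58, SE 0.26, adjusted p = 0.629). Blnk, the adaptor that joins SYK to phospholipase C and is also made by macrophages, was far more abundant, at 12.6, 14.3 and 11.2 in PBS and 15.9, 14.4 and 15.2 in BSN-37, with a log2 difference of 0.21 (SE 0.14, adjusted p = 0.717). Of these 5 genes 5 had a positive difference, with a median of 0.76.

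Surface markers came next. Ms4a1, the gene of CD20 (chromosome 19, 11249675 to 11266241, minus strand), had 0.554, 1.43 and 0.715 FPKM in the PBS pools, against 2.29, 4.42 and 1.43 in the BSN-37 pools. BSN-37 library 3 and PBS library 2 were equal at this precision, so the groups met without crossing (log2 difference 1.55, SE 0.44, edgeR adjusted p = 0.528, DESeq2 adjusted p = 0.0259). Cxcr5, the receptor of CXCL13 that guides B cells to follicles and to the peritoneal cavity, had 0.573, 0.864 and 0.631 in PBS and 1.71, 2.02 and 0.755 in BSN-37, with BSN-37 library 3 again inside the PBS range (log2 difference 1.03, SE 0.36, adjusted p = 0.560). Cxcr5 overlaps the coding gene Bcl9l on the opposite strand, and whether reads were counted by strand is not stated in the sources. The same limit holds for Cd37 (Tead2), Cd72 (Tesk1) and Ralgps2 (Angptl1). Mzb1 overlaps SPATA24 on the same strand, where counting by strand would not separate them. Cd24a, a small glycoprotein also found on granulocytes and red cell precursors, had 13.1, 18.1 and 17.2 in PBS and 25.3, 28.3 and 17.9 in BSN-37 (log2 difference 0.52, SE 0.19, adjusted p = 0.566). Cd37, a tetraspanin of B cells and myeloid cells, stood at 139, 109 and 117 in PBS and 121, 116 and 121 in BSN-37. Its log2 difference of -0.12 had an unadjusted 95% interval of -0.44 to 0.20.

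Among the transcription factors, those of low level stood higher in BSN-37 and the abundant ones did not, though none passed the adjusted threshold. Pax5, the factor that holds B cell identity, had 0.179, 0.463 and 0.339 FPKM in the PBS pools, against 0.854, 1.34 and 0.447 with BSN-37 (log2 difference 1.26, SE 0.49, adjusted p = 0.603). Ebf1, which acts with PAX5 early in the lineage, had 0.350, 0.645 and 0.286 in PBS and 1.00, 1.07 and 0.504 in BSN-37 (1.10, SE 0.41, adjusted p = 0.593). Pou2af1, the coactivator OBF1, had 0.626, 1.52 and 0.441 in PBS and 2.61, 2.11 and 1.20 in BSN-37 (1.16, SE 0.45, adjusted p = 0.599). In each of these 3 genes BSN-37 libraries 1 and 2 lay above all PBS pools and BSN-37 library 3 lay under PBS library 2.

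Spib, an ETS factor shared with plasmacytoid dendritic cells, had 0.676, 1.13 and 0.465 in PBS and 1.94, 1.75 and 0.518 in BSN-37 (0.85, SE 0.49, adjusted p = 0.688). Bcl11a, a zinc finger factor of B cells and dendritic cells, had 0.269, 0.422 and 0.227 in PBS and 0.502, 0.563 and 0.611 in BSN-37. It was the 1 factor here whose pools did not overlap in FPKM, though on counts its log2 difference was 0.52 (SE 0.27, adjusted p = 0.670). Pou2f2, the gene of OCT2, had 9.13 ± 1.77 FPKM with PBS against 7.11 ± 1.33 with BSN-37 (SD, n = 3 pools, as for all ± values), a log2 difference of -0.16 with an unadjusted 95% interval of -0.56 to 0.25. Bhlhe41, which B-1 cells need and which some macrophages also express, had 15.0 ± 0.903 and 14.7 ± 1.46 (-0.09, interval -0.36 to 0.19).

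The set holds a pair of receptors of BAFF and APRIL, the survival cytokines of B cells, and the difference between them was not tested. Tnfrsf13c, the BAFF receptor that mature B cells depend on (chromosome 15, 82221743 to 82224369, minus strand), had 0.218, 0.274 and 0.131 FPKM in PBS and 0.569, 0.536 and 0.353 in BSN-37. No BSN-37 pool reached down to a PBS pool (counts 32, 42 and 21 against 74, 74 and 53, log2 difference 1.11, SE 0.40, adjusted p = 0.574). Tnfrsf13b, the gene of TACI, which macrophages also express, had 9.70, 10.4 and 9.09 in PBS and 9.87, 9.81 and 12.7 in BSN-37 (0.07, interval -0.28 to 0.41).

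Coreceptors and inhibitory receptors made up the largest group, with 10 genes. Btla, an inhibitory receptor of B and T cells (chromosome 16, 45224315 to 45257670, plus strand), had 0.0435, 0.178 and 0.134 FPKM in PBS and 0.380, 0.331 and 0.374 in BSN-37. Its counts were 11, 44 and 35 against 83, 76 and 96, and all BSN-37 pools lay above all PBS pools (log2 difference 1.53, SE 0.42, adjusted p = 0.528). In Btla the lowest BSN-37 pool was library 2, not library 3. Cd22, a sialic acid-binding inhibitor of the receptor, had 0.913, 0.858 and 0.256 in PBS and 1.38, 1.11 and 0.966 in BSN-37, without overlap in FPKM (0.79, SE 0.39, adjusted p = 0.652). Siglecg, its relative that is prominent on B-1 cells, had 0.293, 0.748 and 0.170 in PBS and 0.774, 0.967 and 0.573 in BSN-37 (0.92, SE 0.45, adjusted p = 0.653).

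Among the Fc receptor-like genes, Fcrla, whose protein stays inside B cells, had 0.970 ± 0.605 FPKM with PBS against 1.85 ± 0.869 with BSN-37 (log2 difference 0.98, SE 0.46, adjusted p = 0.639). Fcrl5, a receptor of B-1 and marginal zone B cells, had 0, 36 and 9 reads in the PBS pools and 38, 34 and 40 in the BSN-37 pools. The 3 BSN-37 pools were nearly equal, and PBS library 2 matched them (1.34, SE 0.70, adjusted p = 0.668). The Fcrl5 difference was 3.02 without PBS library 2 and 0.80 without PBS library 1. Fcrl1, which in contrast promotes activation, had 1.87, 3.07 and 2.70 FPKM in PBS and 2.92, 3.22 and 1.67 in BSN-37, a log2 difference of 0.02 with an unadjusted 95% interval of -0.63 to 0.66. Its level relative to Cd79a was 1.77, 1.77 and 2.04 in the PBS pools and 0.538, 0.713 and 0.594 in the BSN-37 pools, with no overlap, a ratio looked at after the values were seen. Fcrl1 was the most abundant B restricted gene after Cd79b in the PBS pools.

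The other receptors were low or level. Cd72, an inhibitory lectin-like receptor also found on macrophages, had 1.36 ± 0.313 FPKM over the PBS pools and 1.41 ± 0.0831 over the BSN-37 pools, while its counts gave a log2 difference of -0.16 (interval -0.79 to 0.47). Cd5, a marker of T cells and B-1a cells, had 8, 23 and 10 reads in PBS and 15, 26 and 7 in BSN-37 (0.25, SE 0.63). Fcer2a, the IgE receptor CD23 of follicular B cells, had 16, 4 and 10 reads against 21, 8 and 16 (0.60, SE 0.65). Cr2, the complement receptor CD21, had 3, 5 and 6 against 12, 8 and 14. At these depths a difference in Cd5 or Fcer2a of the size seen in Cd79a lies inside the interval and could not be told from none.

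A further 3 genes stood outside these groups. Mzb1, an endoplasmic reticulum protein of marginal zone and B-1 cells that assists antibody secretion, had 1.04 ± 0.508 FPKM with PBS against 1.54 ± 0.590 with BSN-37 (log2 difference 0.51, SE 0.44, adjusted p = 0.768). Ralgps2, an exchange factor of Ral GTPases, had 0.492 ± 0.130 and 0.552 ± 0.148 (0.38, SE 0.29, adjusted p = 0.741). Vpreb3, a protein related to the surrogate light chain, had 2 reads in BSN-37 library 2 and 0 in each of the other 5 libraries, where a count of 0 allows up to 3 reads.

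**Figure D2:**
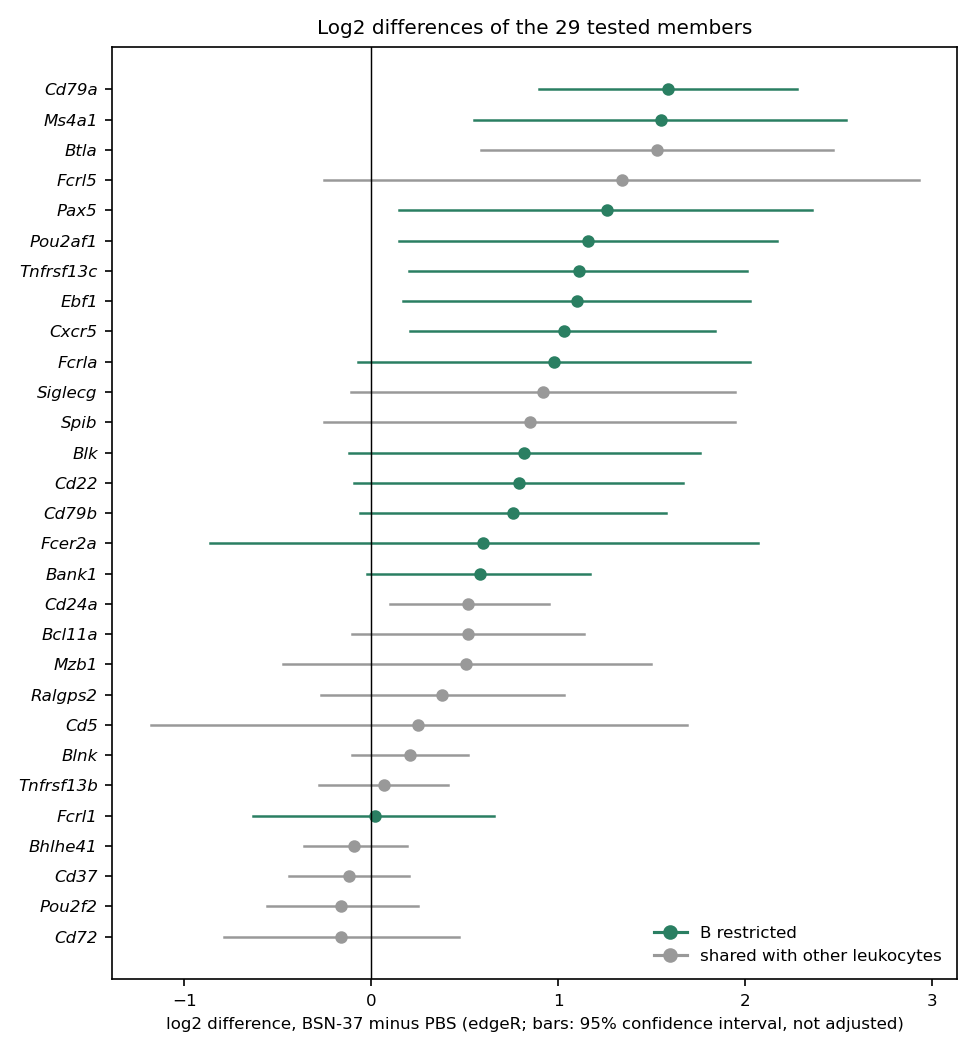
Log2 difference (BSN-37 minus PBS, edgeR) of the 29 tested members with its unadjusted 95% confidence interval; green marks B restricted and grey shared genes. Cd79a (1.59) and Ms4a1 (1.55) lead, Fcrl1 (0.02) is the B restricted gene at 0, and Cd37, Bhlhe41 and Tnfrsf13b have short intervals that include 0.

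Most B restricted genes had the same highest PBS pool and the same lowest BSN-37 pool, while the other ends were split. Leaving out Vpreb3, PBS library 2 was the highest PBS pool for 13 of 15 genes, and BSN-37 library 3 was the lowest BSN-37 pool for 14 of 15. The highest of all 6 pools was BSN-37 library 2 for 9 and BSN-37 library 1 for 6 of the 15. PBS library 3 was the lowest of the 6 for 8 of them and PBS library 1 for 5. As a median over the 14 tested B restricted genes, the log2 level relative to each gene's PBS mean was -0.22, 0.52 and -0.38 in the PBS pools and 1.30, 1.39 and 0.47 in the BSN-37 pools. The shared genes ranged less, from -0.13 to 0.30 in PBS and from 0.17 to 0.82 in BSN-37.

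**Figure D3:**
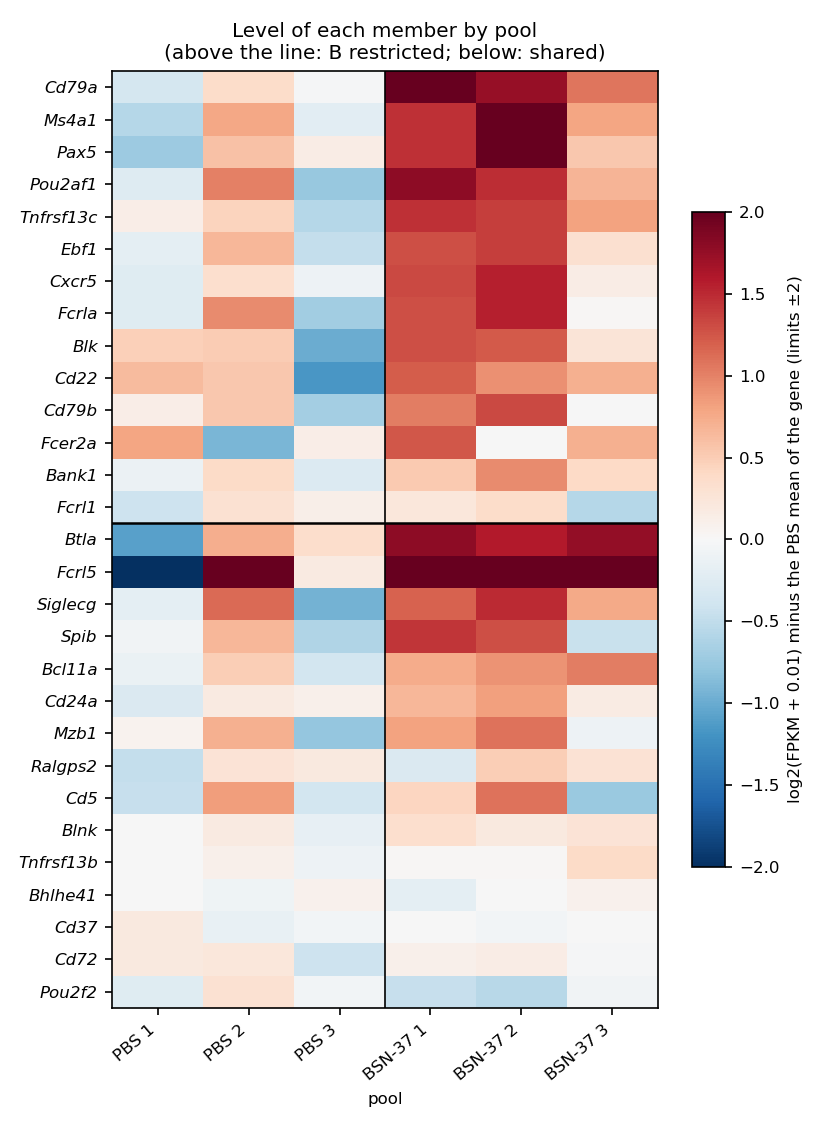
Level of each tested member in each pool as log2(FPKM + 0.01) minus the gene's PBS mean, with colours limited to ±2; B restricted genes are above the line. PBS 2 is the warmest PBS column and BSN-37 3 the palest BSN-37 column over most B restricted genes, with Fcer2a as an exception in both groups and Cd22 in PBS.

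Other genes of the receptor pathway, which macrophages largely share, were near level. Of 32 measured genes of B cell receptor signalling 18 had a positive and 14 a negative log2 difference, with a median of 0.07. None passed the adjusted threshold in edgeR or DESeq2, and at an unadjusted p under 0.05 there were 5 higher and 1 lower. Among those of lowest p were Ptprc, the pan-leukocyte phosphatase CD45 (log2 difference 0.52, edgeR adjusted p = 0.528), and Fcgr2b, the inhibitory Fc receptor (0.31, adjusted p = 0.573). Syk, Lyn and Btk, kinases that macrophages use too, had log2 differences of -0.01, 0.10 and -0.02. Of 7 tested genes of the BAFF pathway outside the set, 7 had a negative difference (median -0.24), with 0 past the adjusted threshold in edgeR and in DESeq2 and 1, Traf2, at an unadjusted p under 0.05. Tnfsf13b, the gene of BAFF itself, had 0.929, 0.461 and 0.301 FPKM in PBS and 0.295, 0.578 and 0.561 in BSN-37, groups that overlapped.

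Stage markers ranged from genes without a read, most of them in the early B cell list, to well-detected genes. Among 7 genes of early B cells, 4 had no read in any library, and only Cd93, also a myeloid gene, was tested (0.28). Igll1, of the surrogate light chain, was at 0 in all 6 libraries. Of 6 germinal centre genes 4 were tested, 1 with a positive difference. The plasma cell list (4 of 7 tested, median -0.03) held Sdc1 at 21.6 to 38.5 FPKM and Prdm1 at 6.46 to 10.4, genes that macrophages also express. Outside the set, the B-1 list had 4 tested genes with a median of -0.22 and the follicular list 4 with a median of 0.36. None of these lists had a gene past the adjusted threshold in edgeR or DESeq2. Their genes at an unadjusted p under 0.05 numbered 1, 0, 1, 1 and 1 in the order given, lower in the B-1 list and higher in the others.

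Marker lists of other cell types were read beside these levels. The summed level of 16 T cell genes was 1.95, 2.66 and 1.82 FPKM in the PBS pools, against 3.36, 4.47 and 2.08 in the BSN-37 pools, the order of pools within each group that the B restricted sum has. Most of that sum was Cd2, which mouse B cells also express. The defining T cell gene Cd3e had 0, 0.111 and 0 FPKM in PBS and 0.113, 0.118 and 0.0354 in BSN-37, Cd3d had 0 to 0.203, and 2 of the 16 had no read. The 7 genes of conventional dendritic cells summed to 3.56 to 3.78 FPKM in PBS and to 5.26, 5.65 and 2.77 in BSN-37, with Flt3 at 0 to 0.142 and 0.147 to 0.275. The 7 genes of plasmacytoid dendritic cells summed to 10.1 to 12.2 in PBS and 9.49 to 15.1 in BSN-37, with Siglech at 0 to 0.0591. NK cell genes, 7 listed and 6 without a read, summed to at most 0.0988. Genes of neutrophils (130 to 155 in PBS, 142 to 227 in BSN-37) and macrophages overlapped between the groups. Mast cell and basophil sums were low but did not overlap, at 0.11 to 0.198 in PBS and 0.561 to 0.796 in BSN-37. The largest part came from a different gene in each BSN-37 pool, Tpsb2 (34 reads), Kit (85) and Cpa3 (32) in library order. The 2 tested genes, Tpsb2 and Kit, each overlapped between the groups. Sums overlapped for eosinophil genes (0.228 to 0.506 against 0.432 to 0.778), mesothelial genes (1.04 to 4.49 against 1.52 to 3.28) and platelet genes (147 to 239 against 215 to 240). Erythroid genes were uneven, at 1.28, 20.1 and 0.395 in PBS and 0.862, 0.165 and 33.9 in BSN-37. The part of other cell types in the B cell gene levels was not tested.

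**Figure D4:**
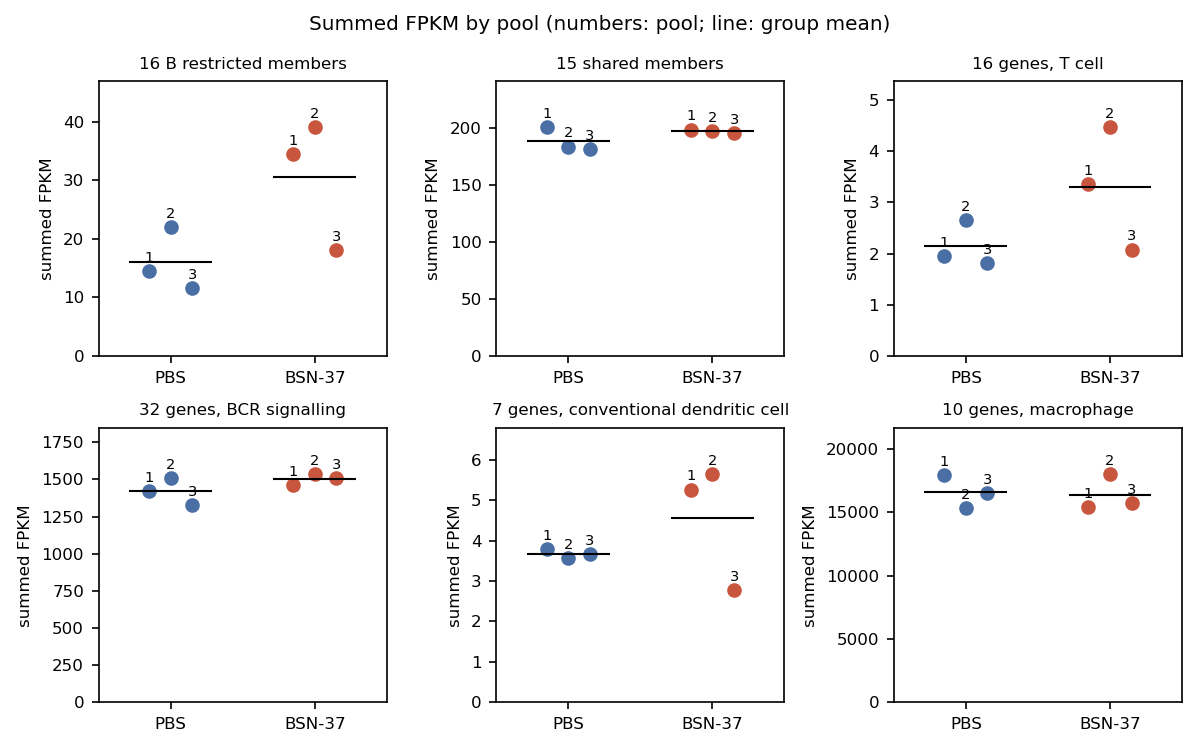
Summed FPKM of the B restricted and shared genes and of 4 comparison lists in each pool, with axes that start at 0; numbers are pools and lines group means. The B restricted sum runs from 11.6 to 22.1 in PBS and from 18.1 to 39.1 in BSN-37, the T cell sum is lower but ordered alike, and the macrophage sum overlaps.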

How the data were processed

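Strand-specific, rRNA-depleted libraries were sequenced, per the labels' protocols, although the design text speaks of microarrays. The deposited gene table holds read counts and FPKM of each library, per the file headers, and, where given, a p-value and a log2 fold change that the authors took from DESeq2. The submitters' processing notes name GRCm38. The aligner, counter, strand setting and circular RNA caller were not given in the sources used here. FPKM and counts were not in strict proportion for every gene, so levels are given in FPKM and tests were run on counts. The deposited circular RNA table holds junction counts, a scaled signal, a p-value and a log2 fold change by the authors, of which only counts were used. The deposited tables also hold 4 columns of group means by the authors, among them mean counts that need not be whole (entered as estimated counts), and these were left out.

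Groups come from the sample titles. Genes of every class with at least 60 reads over the 6 libraries were tested with edgeR 4.0.16 (R 4.3.3; TMM, glmQLFit and glmQLFTest, two-sided, no covariates), adjusted by Benjamini-Hochberg over all 17025. This filter was used in place of 1 FPKM in 3 libraries, which keeps 15 of the 31 members. DESeq2 1.42.0 and limma 3.58.1 on log2(FPKM + 1) or log2(FPKM + 0.1) were alternatives. The members, the lists and the split into B restricted and shared genes were chosen with earlier results of these data known, so list counts are descriptions. All 31 members are named; from other lists the first 2 genes and up to 4 signalling genes of lowest p may be named by rule, some of which are not reported here, and Cd93, Cd2, Traf2, Syk, Lyn and Btk were chosen after their values were seen. Standard errors and intervals come from the quasi-likelihood F statistic. Every pair of libraries differed beyond counting error (chi-square over its degrees of freedom, 61.5 to 197). Names and positions of genes are from GENCODE M21 (GRCm38). The 0-count limit of 3 reads covers counting error only, and the labels name no molecular identifiers.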

Additional observations from a re-analysis of the deposited data

Results flagged for a closer look

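A circular RNA from the Pax5 locus (chromosome 4, 44609715 to 44697687, GRCm38) had 3 junction reads in BSN-37 library 1 and 0 in the other 5 libraries, and is listed because it exceeds the control pools in data the comparisons do not use. A count of 0 allows up to 3 reads, so no difference was detectable. Circular RNAs of Bank1 and Pou2f2 had 4 reads each, in PBS library 1 alone, and these 3 were the circular RNAs hosted by the 31 genes.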

How the results depend on the processing

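Over the whole table edgeR called 0 genes under both other scalings, no filter, the 1 FPKM filter, the older quasi-likelihood method and the replicate block, limma called 0, and DESeq2 called 126. Leave-one-out counts were 0 to 13, with 13 when BSN-37 library 2 was left out. Members called numbered 0 in each setting but DESeq2, which called 2, Cd79a (log2 difference 1.60, adjusted p = 0.000295) and Ms4a1 (1.56, adjusted p = 0.0259). The number of members at an unadjusted p under 0.05 was 4 with the 1 FPKM filter, which tests fewer members, and 15 with the replicate block, and 3 to 15 when single libraries were left out. The median log2 difference of the members was 0.30 and that of the B restricted ones 0.46 with limma on log2(FPKM + 1), where the pseudocount shrinks low levels. That of the shared genes was 0.07 with the 1 FPKM filter. Leaving out single libraries put these medians at 0.49 to 1.02, 0.78 to 1.31 and 0.21 to 0.59.

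Of 421 values of single members under 15 alternatives, 9 changed sign, in 5 genes near 0, none of them called. Cd72 was at 0.04 and 0.07 with limma at pseudocounts 1 and 0.1. Fcrl1 was at -0.01 with the replicate block. With 1 library left out Fcrl1 ran from -0.15 to 0.26, Cd37 from -0.20 to 0.02, Cd5 from -0.27 to 0.82 and Tnfrsf13b from -0.08 to 0.16. Of the members that kept their sign, Fcrl5 ran from 0.80 to 3.02, Siglecg from 0.57 to 1.72, Fcrla from 0.70 to 1.56, Mzb1 from 0.21 to 0.91, Fcer2a from 0.20 to 1.16, Cd22 from 0.41 to 1.03, Blk from 0.47 to 1.09, Cd79b from 0.49 to 1.05, Pax5 from 0.83 to 1.60, Pou2af1 from 0.85 to 1.82, Spib from 0.52 to 1.25, Ralgps2 from 0.15 to 0.57 and Blnk from 0.13 to 0.28, none of them called. The causes were not tested. Nothing in the labels pairs the pools, and same-numbered pools deviated together by correlations of 0.02, 0.05 and -0.02, so the block stands for a shared number alone; not every pool correlated best with its own number. Depth limits Cr2, Vpreb3, Cd5 and Fcer2a.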
